A study of Mus musculus with 9 samples.

Results

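The genes described here are the 46 cyclin, cyclin-dependent kinase (CDK), CDK inhibitor, E2F, pocket protein, CDC25 and Wee1-type genes that run the switches of the cell cycle, out of 53280 genes in the count table. They were taken by name from a list, not by their values, and were measured by RNA sequencing of the neural retina of mouse pups on postnatal day 4 (P4). Of the 46, 24 were classed as activators that move a cell towards division, 17 as inhibitors that hold it back, and 5 as genes with both roles. Knockout pups lacked Opn4, the gene of the melanopsin photopigment, and wildtype pups were their littermates from crosses of Opn4 heterozygotes. Both genotypes were kept under about 300 lux, and retinas were taken from 6 to 7 h after the start of the light phase. Each of the 5 knockout and 4 wildtype libraries came from a pool of 4 retinas of 2 animals. Sex, litter and strain background are not given in the labels, and the knockout came through the germline, not from loss in 1 cell type.

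A dividing cell is carried forward by kinases that are inactive without a cyclin partner. D-type cyclins with Cdk4 or Cdk6 begin the phosphorylation of the pocket proteins Rb1, Rbl1 and Rbl2, which releases E2F transcription factors and lets cyclins E and A with Cdk2 start DNA synthesis. Cyclins A and B with Cdk1 then drive mitosis, with Wee1 and Pkmyt1 holding Cdk1 inactive until CDC25 phosphatases free it. Many genes of this circuit are periodic in cycling cells: they are transcribed around S phase through E2F or around mitosis through the MuvB complex with B-Myb (Mybl2) and Foxm1, and are silenced when a cell leaves the cycle. Others, such as Rb1, E2f4 and Cdkn1b, stay transcribed in resting cells. In the mouse retina at this age, progenitors still divide and most of their daughters become rods, bipolar cells and Müller glia.

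In the knockout retina, 26 of the 46 genes were lower and 0 were higher (edgeR quasi-likelihood F test, Benjamini-Hochberg adjusted p below 0.05 over 21150 genes). Over all genes tested, 2.25% were called lower and 1.34% higher, 3.59% in either direction. All 46 genes passed the filter on low counts, 41 had a negative log2 fold change and 5 a positive one, and the median was −0.41, where the median of all genes was 0.00. The differences ran from −0.94 for E2f8 to 0.16 for Ccnd2, and 34 of the 46 had an unadjusted p below 0.05, as did 16.5% of all genes. Log2 fold changes are given as knockout minus wildtype, so that negative values mean lower in knockout. CPM are counts scaled to the library total times its TMM normalization factor, which was 0.9936 to 1.007. For 26 members every knockout pool lay below every wildtype pool in CPM, which held for 4.74% of all genes. The reverse held for 1 member, Rb1, and for 3.46% of all genes. These are whole-tissue libraries, in which fewer dividing cells and less RNA per dividing cell cannot be told apart.

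**Figure D1:**
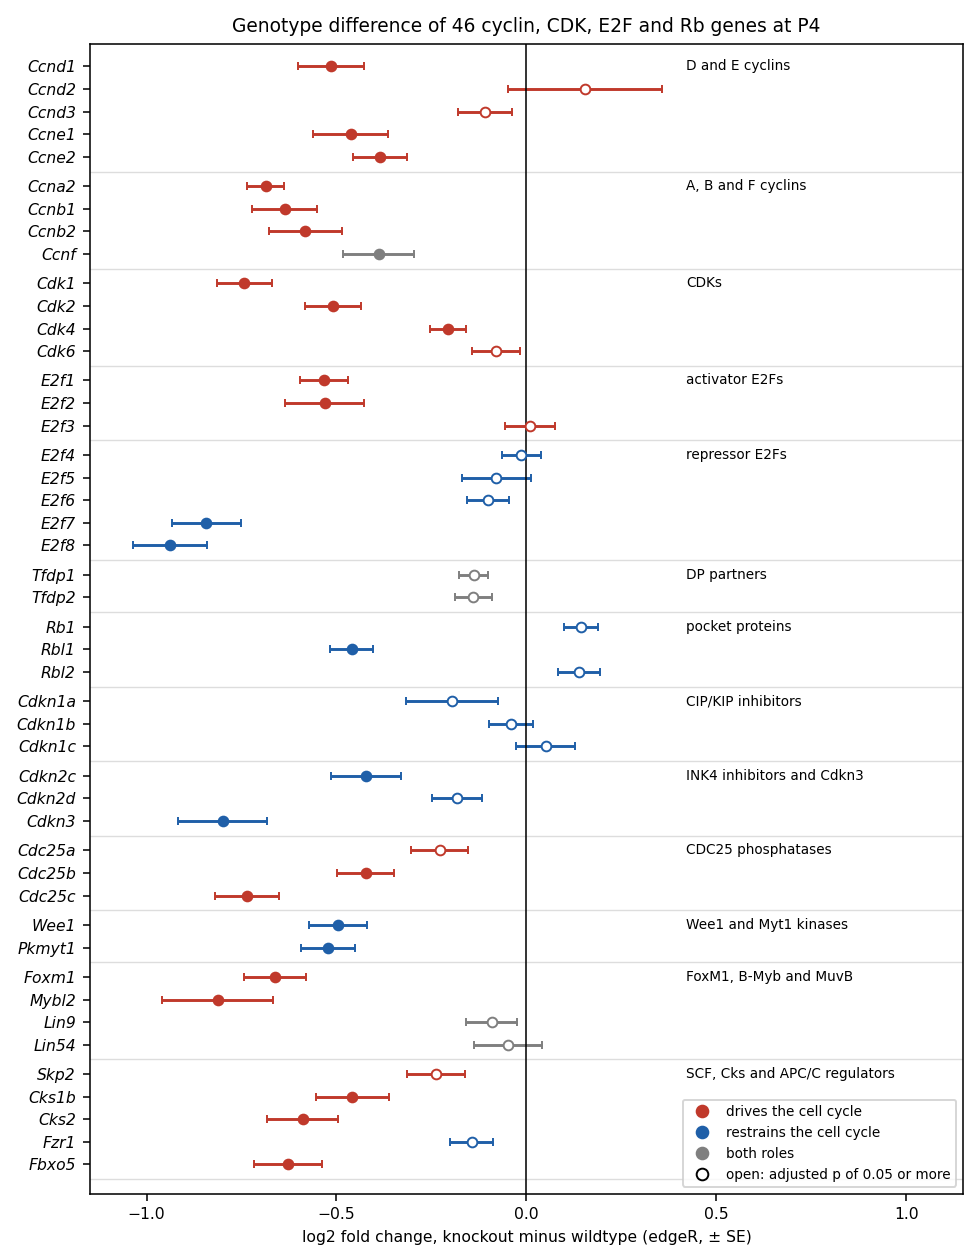
Log2 fold change of each of the 46 genes (horizontal axis, knockout minus wildtype, ± SE from edgeR), grouped by role, with red for activators, blue for inhibitors and grey for both roles; filled points have an adjusted p below 0.05. Filled points lie left of 0 in both red and blue, and E2f8, an inhibitor, has the largest fall at −0.94.

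Activators were called lower more often than inhibitors, 18 of 24 against 7 of 17, with median log2 fold changes of −0.51 and −0.18. Of the 5 genes with both roles, 1 (Ccnf) was lower and the median was −0.14. The genes were also split by the kind of transcription. Among genes known as periodic in cycling cells, 15 of 17 activators and 7 of 8 inhibitors were lower, with medians of −0.58 and −0.51. Among the other genes, 3 of 7 activators (Ccnd1, Cdk2 and Cdk4) and 0 of 9 inhibitors were lower, with medians of −0.11 and −0.04. In the test of the counts those 9 inhibitors included 3 with an unadjusted p below 0.05, where 16.5% of all genes had one, and DESeq2 called none of them lower and Rb1 higher. No test was made between these classes, since the genes were chosen with results of these data known.

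The same can be read from the pools. The mean log2 CPM of the periodic activators, relative to the mean of all 9 pools, was −0.40, −0.38, −0.19, −0.15 and −0.13 in knockout pools 1 to 5 and 0.30, 0.34, 0.33 and 0.29 in wildtype pools 1 to 4. Periodic inhibitors stood at −0.42, −0.31, −0.19, −0.19 and −0.21 in the knockout pools and at 0.33, 0.31, 0.35 and 0.34 in the wildtype pools. Neither class overlapped between genotypes, and the spread was wider among knockout pools (SD 0.13 and 0.10) than among wildtype pools (SD 0.02 for both). The other activators did not overlap either, by a narrow gap, at −0.24 to 0.06 in knockout and 0.07 to 0.15 in wildtype. The other inhibitors overlapped. The periodic activators minus the periodic inhibitors came to −0.07 to 0.08 in knockout and −0.05 to 0.03 in wildtype, ranges that overlapped. The other activators minus the other inhibitors came to −0.17 to 0.06 in knockout and 0.05 to 0.14 in wildtype, and these ranges overlapped too. Over all activators minus all inhibitors the knockout pools had −0.12, −0.16, −0.09, −0.00 and 0.03 and the wildtype pools 0.09, 0.10, 0.08 and 0.08, without overlap. That comparison mixes the kinds of transcription, since 17 of 24 activators but 8 of 17 inhibitors were periodic.

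**Figure D2:**
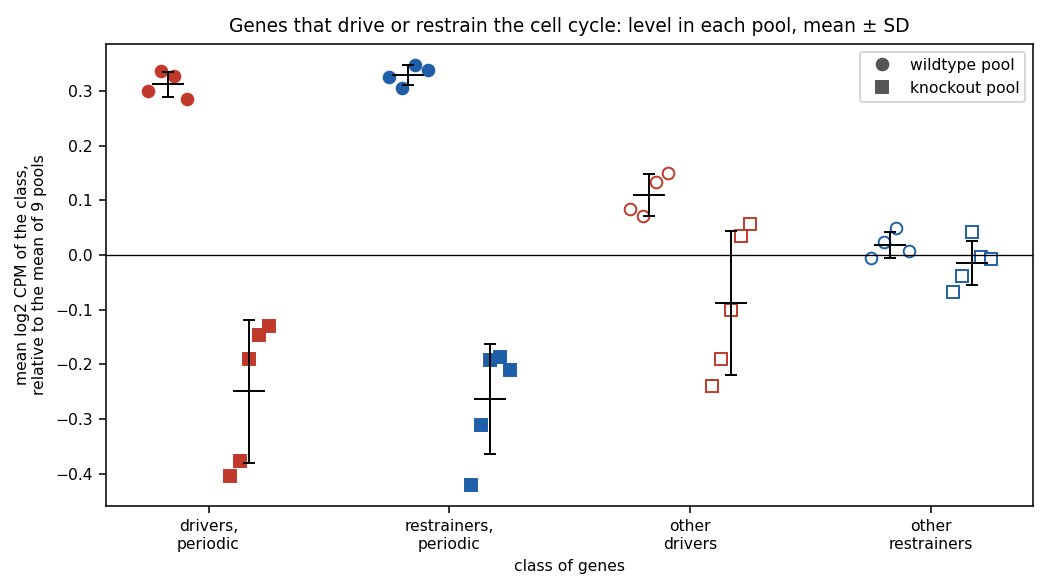
Mean log2 CPM of 4 classes of genes in each pool, relative to the mean of 9 pools (vertical axis), with the mean ± SD per genotype; circles are wildtype and squares knockout pools. Periodic activators (drivers) and periodic inhibitors (restrainers) fall apart by genotype to a like extent, at 0.31 and 0.33 in wildtype and −0.25 and −0.26 in knockout. The other activators lie apart by a narrow gap, and the other inhibitors overlap.

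Knockout pools 1 and 2 were the lowest of their genotype for most members. Of the 26 genes called lower, knockout pool 1 had the lowest CPM in 15, pool 2 in 8, pool 3 in 2, pool 4 in 1 and pool 5 in 0. The same pools 1 and 2 stood apart in transcripts of other cells. Their summed CPM over 12 lens genes, of which 8 had counts in all pools and none was at 0 in every pool, was 19.6 and 15.9, against 7.30 to 9.20 in the other 7 pools. Over 15 rod genes, all detected, they had 6925 and 6805 CPM, where knockout pools 3 to 5 had 5129 to 5752 and wildtype pools 4511 to 4853. Without both pools 22 members were still called lower, all among the 26, and the medians were −0.41 for activators and −0.12 for inhibitors. The members lost were Ccne1, Ccnf, Cdk4 and Cks1b, with edgeR adjusted p-values of 0.105, 0.148, 0.12 and 0.0654.

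Other marker lists also moved with genotype. Of 15 rod genes 12 were higher and 0 lower, with a median log2 fold change of 0.50. Of 14 genes of retinal progenitor identity 2 were lower and 1 higher, with a median of −0.16, and their summed CPM was 2513 to 2825 in knockout and 2842 to 2989 in wildtype. Of 7 red blood cell genes 5 were lower, with sums of 73.8 to 99.4 CPM in knockout and 110.5 to 339.6 in wildtype. Of 9 vascular genes 0 were called, with sums of 454.6 to 504.9 and 411.3 to 485.5 CPM. The part of rod, progenitor or blood content in the cell cycle result was not tested. Library totals were 65.5 to 86.1 M counts (M, mega), and no pool held fewer than 348 counts of any member. Opn4 itself (chromosome 14, 34590618 to 34600142, GRCm38) had 1.07 to 1.82 CPM in the knockout pools and 11.4 to 12.1 CPM in the wildtype pools (log2 fold change −3.10, SE 0.14; edgeR adjusted p = 1.28e-07), so that every library matched its label.

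Because many of these genes are switched by E2F and MuvB, the bases around their transcription starts were searched for the letters those factors and NF-Y are known to recognise. The words were TTGGCGC or TTCCCGC or TTGCCGC or TTCGCGC for E2F, TTTGAA or TTTAAA for the CHR element that MuvB contacts, and CCAAT for NF-Y, each on both strands, from 250 bases before to 50 after the start. RefSeq windows on GRCm38.p6 were matched for 33 members, of which 11 (33.3%) held an E2F word, 16 (48.5%) a CHR word, 22 (66.7%) a CCAAT word and 13 (39.4%) both of the latter in 1 window. Over 17491 protein-coding genes with such a window the shares were 13.7%, 28.2%, 42.3% and 11.5%. Of the 19 matched members called lower, 8 (42.1%) held an E2F word and 9 (47.4%) CHR and CCAAT together, against 3 (21.4%) and 4 (28.6%) of the 14 not called. For a CHR word it was 10 (52.6%) against 6 (42.9%), and for a CCAAT word 14 (73.7%) against 8 (57.1%). A match describes letters and is not evidence of binding, and 2 matches of members overlapped another motif.

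The 180 bases before the start are shown for 6 members that fell and for Cdkn1b, which was not called, because they set the E2F-type and CHR-type arrangements side by side. Capitals mark the words above on either strand, and each sequence reads 5′ to 3′ towards the start. Cdk1 lies at chr10:69352913-69353092 (minus strand), Ccnb1 at chr13:100786487-100786666 (minus), Ccnb2 at chr9:70421555-70421734 (minus), Cdkn3 at chr14:46760361-46760540 (plus), E2f8 at chr7:48881597-48881776 (minus), Rbl1 at chr2:157204535-157204714 (minus) and Cdkn1b at chr6:134920221-134920400 (plus).
Cdk1: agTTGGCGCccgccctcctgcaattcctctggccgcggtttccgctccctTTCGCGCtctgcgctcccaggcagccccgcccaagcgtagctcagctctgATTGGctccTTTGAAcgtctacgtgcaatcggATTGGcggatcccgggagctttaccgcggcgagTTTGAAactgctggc
Ccnb1: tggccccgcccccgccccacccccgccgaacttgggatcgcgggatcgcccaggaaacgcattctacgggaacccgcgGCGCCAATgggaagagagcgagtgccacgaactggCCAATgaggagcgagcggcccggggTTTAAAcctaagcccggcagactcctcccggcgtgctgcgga
Ccnb2: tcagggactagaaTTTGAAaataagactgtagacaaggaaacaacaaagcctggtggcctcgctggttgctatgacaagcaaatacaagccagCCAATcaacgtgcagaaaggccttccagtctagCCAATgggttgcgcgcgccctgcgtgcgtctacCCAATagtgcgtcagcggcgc
Cdkn3: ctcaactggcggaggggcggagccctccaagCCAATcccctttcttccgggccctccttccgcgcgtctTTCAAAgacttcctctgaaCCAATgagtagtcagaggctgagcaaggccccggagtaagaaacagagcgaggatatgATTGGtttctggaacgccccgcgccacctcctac
E2f8: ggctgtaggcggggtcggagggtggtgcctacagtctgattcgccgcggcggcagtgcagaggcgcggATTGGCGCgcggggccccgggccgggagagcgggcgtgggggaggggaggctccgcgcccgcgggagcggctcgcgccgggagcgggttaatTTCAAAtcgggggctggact
Rbl1: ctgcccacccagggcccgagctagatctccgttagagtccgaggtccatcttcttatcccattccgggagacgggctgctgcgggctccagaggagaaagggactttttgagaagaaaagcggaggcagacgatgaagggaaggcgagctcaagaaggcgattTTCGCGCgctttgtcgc
Cdkn1b: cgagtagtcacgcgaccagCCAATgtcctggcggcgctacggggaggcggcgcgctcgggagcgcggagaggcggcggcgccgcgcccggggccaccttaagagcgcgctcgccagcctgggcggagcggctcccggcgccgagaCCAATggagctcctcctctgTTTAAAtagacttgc
The Cdk1 stretch held words of all 3 kinds, with a CHR word 15 bases before the start and CCAAT words on the reverse strand. Ccnb2 and Cdkn3 held CHR and 3 CCAAT words each and no E2F word, and Rbl1 held an E2F word alone. Past the printed stretch, just after the start, Ccnb2 held another CHR word, which follows its CCAAT words, and Cdkn3 another CCAAT word. In E2f8 and Ccnb1 a CCAAT match overlapped the E2F match. Cdkn1b, though not called, also held a CHR word and CCAAT words.

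The D cyclin that dominates this tissue fell in every knockout pool. Ccnd1, which links growth signals to Cdk4 and Cdk6 and is the main D cyclin of mouse retinal progenitors, had 765, 796, 959, 961 and 1099 CPM in knockout pools 1 to 5 and 1300, 1322, 1349 and 1297 CPM in wildtype pools 1 to 4. The knockout pools were all below the wildtype pools and spread more widely, with means of 916 ± 137 (SD, n = 5) and 1317 ± 23.9 (SD, n = 4). On the log2 scale Ccnd1 fell by 0.51 (SE 0.09; edgeR adjusted p = 0.00465), and it stayed called without pools 1 and 2. Ccnd2 ranged from 17.3 to 37.5 CPM in knockout and from 19.8 to 29.0 in wildtype, a difference of 0.16 that was not called (edgeR adjusted p = 0.776). Ccnd3 had a log2 fold change of −0.11 and was not called (edgeR adjusted p = 0.506). Cyclins E1 and E2, the S-phase entry partners of Cdk2, were lower by log2 fold changes of −0.46 and −0.39, with edgeR adjusted p-values of 0.0191 and 0.00809.

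All 4 cyclins of S phase to mitosis were lower. Ccna2, the cyclin A of somatic cells, serves both Cdk2 and Cdk1 and had the smallest p of all members. Its knockout pools held 88.2, 84.6, 91.2, 94.9 and 92.5 CPM and its wildtype pools 140, 158, 143 and 144 CPM, without overlap and with little spread in either genotype. It fell by 0.69 on the log2 scale (SE 0.05; edgeR adjusted p = 1.37e-05). Ccnb1, the mitotic cyclin, had 51.2, 50.2, 65.9, 60.3 and 59.9 CPM in knockout against 95.4, 99.5, 83.1 and 81.7 CPM in wildtype. The ranges of the genotypes were apart, with a log2 fold change of −0.64 (SE 0.09; edgeR adjusted p = 0.00103). Ccnb2, the other mitotic B cyclin, had a log2 fold change of −0.58 (edgeR adjusted p = 0.00386). Ccnf, whose product is an F-box protein and activates no CDK, had −0.39 (edgeR adjusted p = 0.039) and was the only called member whose genotypes overlapped in CPM, at 16.9 to 22.8 and 22.6 to 28.6.

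Among the kinases, Cdk1 changed most. Cdk1, the kinase of mitosis, had 37.9, 40.3, 46.3, 46 and 48.9 CPM in knockout and 73.4, 73.8, 79.5 and 68.8 CPM in wildtype. Its knockout mean was 59.4% of the wildtype mean, and every knockout pool was lower than every wildtype pool (log2 fold change −0.74, SE 0.07; edgeR adjusted p = 0.000163). Cdk2, the S-phase kinase, had 19.5, 18.5, 17.1, 20.1 and 21.7 CPM in knockout and 26.2, 27.4, 27.3 and 30.1 CPM in wildtype. Here knockout pools 1 and 2 were not the lowest, and the genotypes did not overlap (log2 fold change −0.51, SE 0.07; edgeR adjusted p = 0.00164). Cdk4, a partner of the D cyclins, fell less, with 242 ± 12.1 CPM (SD, n = 5) against 281 ± 13.6 (SD, n = 4) and a log2 fold change of −0.21 (edgeR adjusted p = 0.0304). Its close relative Cdk6 was not called (−0.08; edgeR adjusted p = 0.585).

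**Figure D3:**
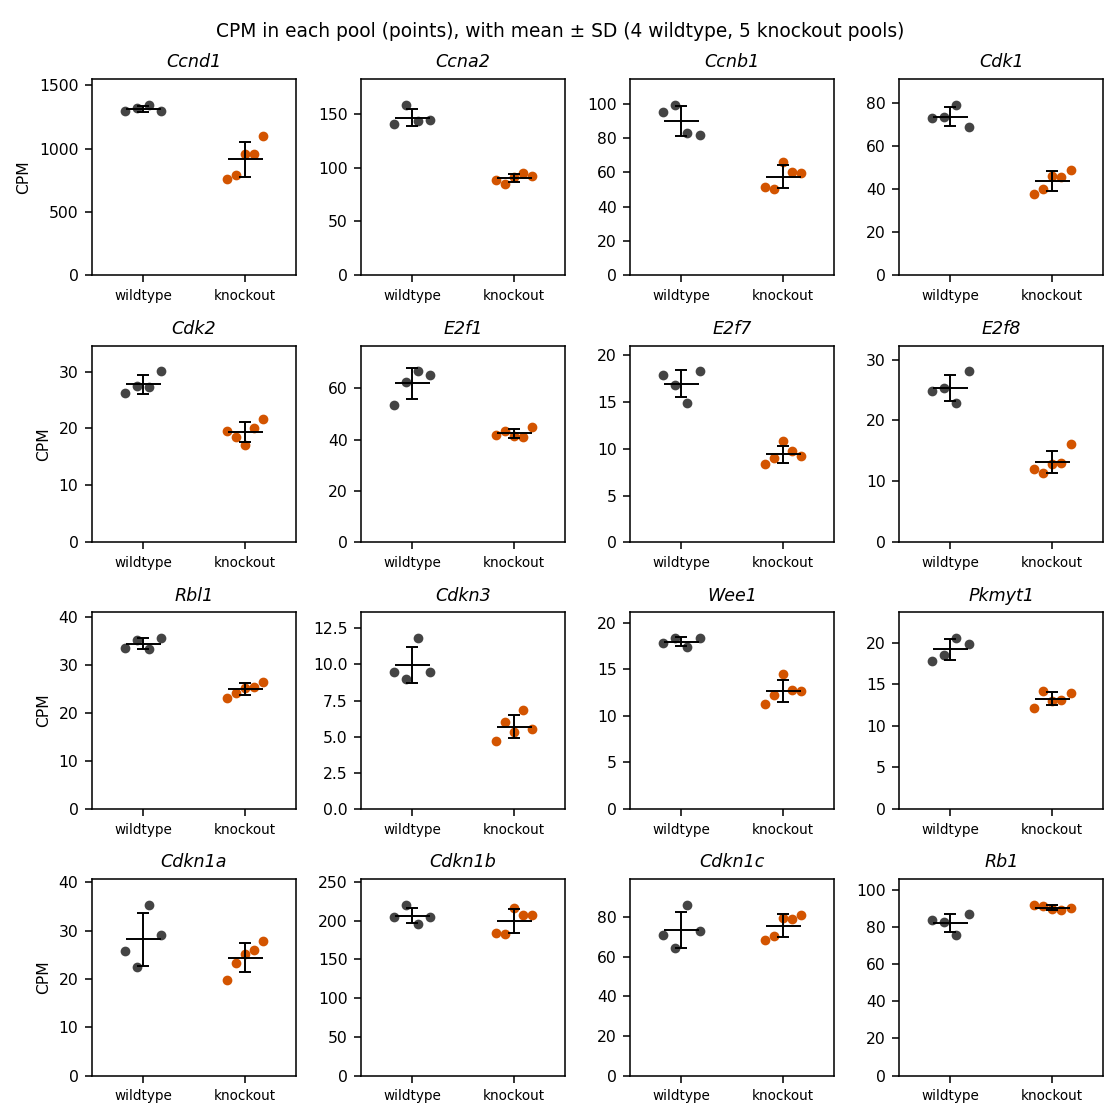
CPM (vertical axis, from 0) of 16 genes in each pool, with points for pools and bars for the mean ± SD of 4 wildtype and 5 knockout pools. From Ccnd1 to Pkmyt1 all knockout points lie below all wildtype points, Cdkn1a, Cdkn1b and Cdkn1c overlap, and for Rb1 all knockout points lie above.

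The E2F family divided in its activators and in its repressors alike. E2f1, an activator of S-phase genes and itself an E2F target, had 41.8, 43.3, 41.4, 40.9 and 45.0 CPM in knockout and 53.3, 62.4, 66.7 and 65.3 CPM in wildtype. The knockout pools were tightly grouped below all wildtype pools (log2 fold change −0.53, SE 0.06; edgeR adjusted p = 0.000421). E2f2, a second activator, fell by 0.53 as well (edgeR adjusted p = 0.0108), whereas E2f3, the third, stood at 32.6 CPM in both genotypes (log2 fold change 0.01; edgeR adjusted p = 0.967). By counts, the largest falls of all were in the atypical repressors E2f7 and E2f8, which need no DP partner and shut down E2F targets in late S phase. E2f8 had 12.1, 11.4, 12.9, 13.0 and 16.1 CPM in knockout and 24.8, 25.3, 22.9 and 28.1 CPM in wildtype. That left 51.8% of the wildtype mean, without overlap (log2 fold change −0.94, SE 0.10; edgeR adjusted p = 0.000217). E2f7 had 8.36, 8.98, 10.8, 9.72 and 9.24 CPM in knockout and 17.9, 16.9, 15 and 18.3 CPM in wildtype, a fall of like size (log2 fold change −0.84, SE 0.09; edgeR adjusted p = 0.000248). E2f4 and E2f5, the repressors that work with pocket proteins in resting cells, and E2f6, which works without them, had log2 fold changes of −0.01, −0.08 and −0.10 and were not called.

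Of the DP partners and pocket proteins, Rbl1 alone was called by edgeR. Tfdp1, the main dimer partner of the E2Fs, had 104, 113, 106, 109 and 109 CPM in knockout and 115, 120, 123 and 121 CPM in wildtype. Its pools did not overlap, but the log2 fold change of −0.14 (SE 0.04) missed the threshold in edgeR (adjusted p = 0.0718) and passed it in DESeq2 (adjusted p = 0.0135). Tfdp2 had the same log2 fold change of −0.14 (edgeR adjusted p = 0.148). Rbl1, the p107 pocket protein and a known E2F target, had 23.1, 24.1, 25.1, 25.4 and 26.4 CPM in knockout and 33.5, 35.2, 33.2 and 35.6 CPM in wildtype. It fell by 0.46 (SE 0.06; edgeR adjusted p = 0.000561), with a gap between the genotypes wider than the range of either. Rb1, the retinoblastoma gene, went the other way, with 92.1, 91.4, 89.5, 89.3 and 90.0 CPM in knockout and 83.8, 82.5, 75.8 and 87.2 CPM in wildtype. All knockout pools were above all wildtype pools, but the log2 fold change of 0.14 (SE 0.04) was not called by edgeR (adjusted p = 0.108) and was by DESeq2 (adjusted p = 0.0409). Rbl2, the p130 pocket protein of resting cells, had 0.14 as well, with overlapping pools (edgeR adjusted p = 0.23).

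None of the 3 CIP/KIP inhibitors, which bind and block cyclin-CDK complexes, was called by edgeR. Cdkn1a (p21), which p53 induces, had 19.9, 23.2, 25.2, 26.0 and 28.0 CPM in knockout and 25.8, 22.6, 35.4 and 29.0 CPM in wildtype. The genotypes overlapped (log2 fold change −0.20, SE 0.12; edgeR adjusted p = 0.474), and leaving out 1 pool moved the log2 fold change from −0.29 (without wildtype pool 2) to −0.07 (without wildtype pool 3), with −0.13 without knockout pool 1. Cdkn1b (p27), which accumulates as retinal cells leave the cycle, had 184, 183, 216, 207 and 207 CPM in knockout and 205, 221, 196 and 204 CPM in wildtype, again overlapping (log2 fold change −0.04, SE 0.06; edgeR adjusted p = 0.806). Cdkn1c (p57) had a log2 fold change of 0.05 (edgeR adjusted p = 0.817). The INK4 genes, whose products block Cdk4 and Cdk6, differed from one another in the call, with Cdkn2c at −0.42 (edgeR adjusted p = 0.0218) and Cdkn2d at −0.18 (edgeR adjusted p = 0.179). Cdkn3, a phosphatase that dephosphorylates CDKs and whose transcript peaks near mitosis, had 4.73, 6, 5.30, 6.81 and 5.56 CPM in knockout and 9.47, 9.02, 11.8 and 9.49 CPM in wildtype. It was lower in all knockout pools, at 57.1% of the wildtype mean (log2 fold change −0.80, SE 0.12; edgeR adjusted p = 0.00179). Cdkn3 (46760541 to 46771669) and Rb1 (73183673 to 73325822) lie on chromosome 14, as Opn4 does. Whether that shared chromosome had a part in their values was not tested.

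The opposed enzymes that set the phosphorylation of Cdk1 fell together. Cdc25c, a phosphatase that activates Cdk1 at mitosis, had 11.2, 9.78, 10.8, 11.5 and 11.3 CPM in knockout and 20.3, 19.4, 17.6 and 15.9 CPM in wildtype. Its genotypes lay apart, with the wildtype pools spread more widely (log2 fold change −0.74, SE 0.08; edgeR adjusted p = 0.000324). Cdc25b, which starts that activation, had −0.42 (edgeR adjusted p = 0.00577), and Cdc25a, which acts at S-phase entry as well, had −0.23 and was not called (edgeR adjusted p = 0.129). Wee1, the nuclear kinase that inhibits Cdk1, had 11.3, 12.2, 14.5, 12.8 and 12.7 CPM in knockout and 17.9, 18.4, 17.4 and 18.3 CPM in wildtype. The wildtype pools lay close together, above every knockout pool (log2 fold change −0.49, SE 0.08; edgeR adjusted p = 0.00251). Pkmyt1, the membrane-bound kinase with the same target, had 12.1, 14.2, 13.0, 13.1 and 13.9 CPM in knockout and 17.7, 18.5, 20.6 and 19.9 CPM in wildtype, again without overlap (log2 fold change −0.52, SE 0.07; edgeR adjusted p = 0.00103).

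Of the transcription factors of the mitotic genes, Foxm1 and Mybl2 fell, and the subunits of the MuvB scaffold were not called. Foxm1, which raises transcription of cyclin B and other mitotic genes, had 33.9, 33.7, 38.1, 42.6 and 44.2 CPM in knockout and 63.1, 60.4, 56.7 and 64.9 CPM in wildtype. All knockout pools were lower (log2 fold change −0.66, SE 0.08; edgeR adjusted p = 0.000605). Mybl2, which joins MuvB in S phase, had −0.81 (SE 0.15; edgeR adjusted p = 0.00644), with 5.71 to 10.9 CPM in knockout and 14.0 to 16.9 CPM in wildtype. The MuvB subunits Lin9 and Lin54, which serve both repressing and activating forms of the complex, had −0.09 and −0.05 and were not called (edgeR adjusted p = 0.561 and 0.858).

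Among regulators of protein destruction and the Cks proteins, 3 of 5 were lower. Fbxo5 (Emi1), an E2F target that keeps the anaphase-promoting complex (APC/C) off during S and G2 phase, had 12.1, 13.3, 14.7, 15 and 16.6 CPM in knockout and 20.3, 24.2, 22.6 and 22.0 CPM in wildtype. It fell by 0.63 (SE 0.09; edgeR adjusted p = 0.00156), with no overlap. Fzr1 (Cdh1), the APC/C activator of G1 phase that Fbxo5 blocks, had −0.14 and was not called (edgeR adjusted p = 0.206). Cks1b and Cks2, small CDK-binding proteins, had −0.46 and −0.59 (edgeR adjusted p = 0.0167 and 0.00305). Skp2, the F-box protein that with Cks1b marks p27 for destruction, had −0.24 and was not called (edgeR adjusted p = 0.118).

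Levels can be compared between genes only per transcript length, which the TPM table allows. On gene-summed TPM, averaged over all 9 pools, Ccnd1 stood first at 533.1, ahead of Cdk4 at 371.5, Cks2 at 144.4, Cdk1 at 138.9, Cdkn1b at 132.8 and Cdkn1c at 115.9, and E2f2 stood last at 7.74. The ranges over pools of Cks2, Cdk1, Cdkn1b and Cdkn1c overlapped, so that their order is not distinct. Cdkn1b stood below Cdk1 in each wildtype pool and above it in each knockout pool. Cdk1 was at 169 to 197 TPM in wildtype and 91.7 to 118 in knockout, and Cdkn1b at 131 to 145 and 117 to 144. Ccnd1 made up 94.5 to 95.3% of the TPM of the 3 D cyclins in wildtype and 91.1 to 93.6% in knockout.

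Ratios of TPM within a pool set members against each other, and several were distinct by genotype. By counts Ccnd1, Rbl1 and E2f1 were called lower and Cdkn1b, Rb1 and E2f4 were not, so the ratios of these pairs largely restate those calls. No share over other pairs of genes was computed. Ccnd1 over Cdkn1b was 3.10 to 3.99 in knockout and 4.36 to 4.91 in wildtype. Cdk1 over the sum of Wee1 and Pkmyt1 was 4.60 to 6.08 in knockout and 6.71 to 7.02 in wildtype, so that the kinase was lower relative to its inhibitors although these were lower as well. Rb1 over Rbl1 was 3.46 to 4.45 in knockout and 2.39 to 2.61 in wildtype. E2f4 over E2f1 was 1.81 to 2.30 in knockout and 1.23 to 1.61 in wildtype. In both ratios the member of resting cells stood higher against the E2F target in every knockout pool than in any wildtype pool. Cdk4 over the sum of Cdk4 and Cdk6, at 95.8 to 98.0% over all pools, overlapped between genotypes.

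**Figure D4:**
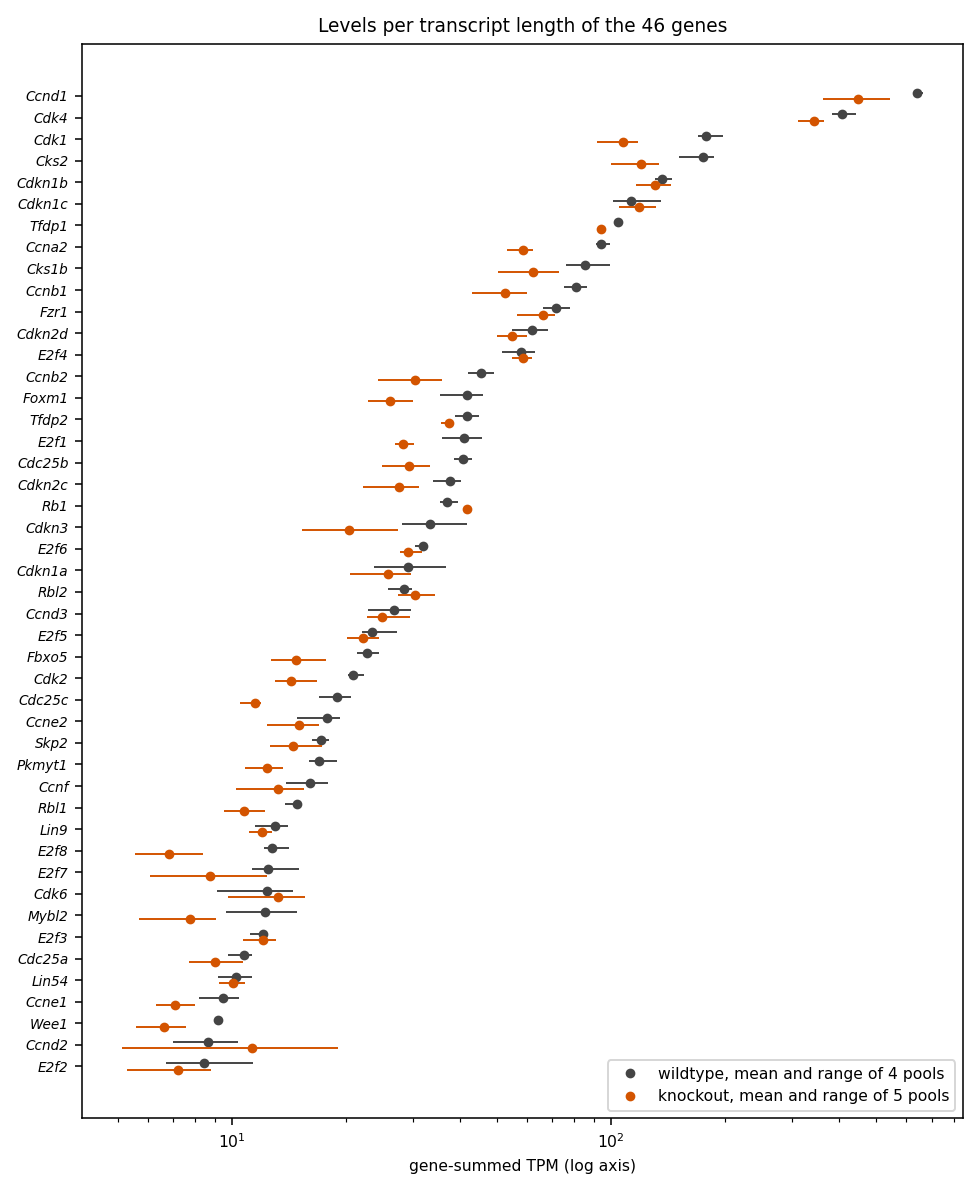
Gene-summed TPM of each of the 46 genes (horizontal log axis), as mean and range of 4 wildtype pools (grey) and 5 knockout pools (orange), in the order of the wildtype mean. Ccnd1 and Cdk4 stand above the rest, and Cdk1 drops below Cdkn1b in the knockout.

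A second quantification of the same libraries gave fewer calls and the same direction. On gene-summed TPM, limma on log2(TPM + 0.5) called 16 members lower and 0 higher, where 1.54% and 0.621% of 15296 genes were called lower and higher. Of the 46 log2 differences 40 were negative and the median was −0.27, on a scale that understates changes of low genes. Activators were lower in 12 of 24 and inhibitors in 4 of 17. Among the periodic genes 10 of 17 activators and 4 of 8 inhibitors were lower, and among the others 2 of 7 and 0 of 9. Ccne2, Ccnf, E2f2 and E2f7, all called lower from the counts, overlapped between genotypes on gene-summed TPM. Their limma adjusted p-values were 0.352, 0.291, 0.659 and 0.236. Ccne1, Cdk4, Cdkn2c, Cdkn3, Mybl2 and Cks1b, also called lower from the counts, missed the threshold on gene-summed TPM without overlap of the genotypes. They had limma adjusted p-values of 0.0748, 0.0722, 0.0569, 0.0728, 0.0679 and 0.0781. The log2 difference of E2f7 was −0.53 there, and that of E2f2 was −0.20. Without wildtype pool 1, limma called 10 members lower. The authors' deposited table listed all 46 genes, of which 8 had a q-value below 0.05 with a lower level in knockout and 0 with a higher one, where 0.815% and 0.648% of its 17433 genes did. In the authors' deposited table the 8 were Ccna2, Cdk2, E2f1, Cdc25b, Cdc25c, Pkmyt1, Foxm1 and Fbxo5, led by Pkmyt1 (q = 4.01e-05) and E2f1 (q = 0.000288), while E2f8 and Cdk1 had q-values of 0.0685 and 0.146. All 8 were also called lower from the counts.

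Single transcript rows of the TPM table were less decisive. Of 271 rows of members 149 could be tested with limma, 5 were lower and 0 higher, and 110 had a negative log2 difference. Over all 48763 rows tested, 0.123% were lower and 0.0533% higher. The 5 were 1 row each of Ccna2, Ccnb1, Cdk1, E2f8 and Cdc25c (limma adjusted p = 0.021, 0.0459, 0.0326, 0.0324 and 0.0379). Leaving out any 1 wildtype pool left 0 rows, and leaving out knockout pool 1, 2 or 4 left 1. Of 36 members with at least 2 tested rows, 20 had rows of both signs.

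The lists next to the core circuit differed in how many genes were called, where 2.25% of all genes were lower and 1.34% higher. Of 24 transcriptional and other cyclins and CDKs, such as those of RNA polymerase II, 0 were lower and 1 higher, Ccng1, a p53 target, at 63.5 ± 3.56 CPM (SD, n = 5) against 54.8 ± 1.75 (SD, n = 4; log2 fold change 0.22, edgeR adjusted p = 0.0295). Their median log2 fold change was 0.03. Of 20 subunits and partners of APC/C and SCF ligases 4 (20%) were lower and 0 higher, with a median of −0.04. These were Cdc20 (−0.58), the mitotic activator of APC/C, its ubiquitin-conjugating enzymes Ube2c (−0.50) and Ube2s (−0.23), and the core subunit Anapc5 (−0.20), with edgeR adjusted p-values of 0.005, 0.014, 0.0367 and 0.00782. Of 20 other genes of the Rb, DREAM and mitotic switches 6 (30%) were lower and 0 higher, with a median of −0.10.

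Some members share sequence with other genes, and the labels do not say whether the deposited counts used strand. Exons of a gene on the opposite strand covered 30.7% of the exon bases of Cdkn1c, 23.4% of Ccnd1, 19.7% of Cdk4, 17.4% of Ccne2, 12.7% of Cdc25c, 12.5% of Ccna2, 11.8% of Rbl2, 11.2% of E2f8, 8.76% of Pkmyt1 and 8.11% of Rb1, so that reads of such a pair cannot be told apart there. Among these, a partner had more counts than the member for Ccne2 (Ints8, 4754 against 1552 counts per pool on average), Rbl2 (Aktip, 6693 against 4629) and Pkmyt1 (Paqr4, 5686 against 1248). Aktip covered 9.17% of Rbl2, and the 11.8% belongs to Gm45464, which had 144.9 counts. The partner of Ccnd1, LTO1, had no count under that symbol and was not compared. Near-identical copies were found for Ccnb1, Ccnd3, Cdkn1c, Mybl2 and Tfdp1, and the copies of Ccnb1 held at most 130 counts per pool on average, where Ccnb1 held 5632.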

How the data were processed

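RNA of 9 pools of P4 neural retina (5 Opn4 knockout, 4 wildtype) was sequenced by the submitters. The deposited counts are whole numbers per gene symbol, and the labels do not name the program that wrote them. The deposited TPM values, treated as a score because the authors' column sums run from 953963 to 1083977, came from Trimmomatic 0.39 and kallisto 0.46.1 per the submitters' processing notes. They are listed per transcript row with no transcript identifier, and were summed per symbol. The deposited comparison, from sleuth 0.30.8 per those notes, holds p-values and q-values and an effect on the natural log scale per the file headers. That effect was converted to log2, with its sign read from the deposited values of Opn4.

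Counts were tested with edgeR 4.0.16 in R 4.3.3 (filterByExpr, TMM, quasi-likelihood F test, two-sided, Benjamini-Hochberg over 21150 genes, threshold 0.05). Symbols and rows that reached a TPM of 1 in 4 or more pools went into limma 3.58.1 on log2(TPM + 0.5). Positions are from GENCODE M21 on GRCm38, promoters from RefSeq. The edgeR test and limma on gene-summed TPM were checked on simulated data, and the test of transcript rows, voom and DESeq2 were not. Counts, not reads, set the depth, and p-values measure the spread between pools of separate animals. Alternatives were other scalings and filters, voom, DESeq2 1.42.0, a replicate block, and leaving out pools. Values in every pool were printed for the member with the smallest p in each role, any called member opposed to the rest, and 4 more by p. Rb1, Cdkn1b and Ccnd2 were added after their values were seen, as was naming Mybl2, E2f3 and Cdk6 by range. The members, their classes and all lists were chosen with earlier results of these data known.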

Additional observations from a re-analysis of the deposited data

Results flagged for a closer look

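Of 92 groups of pools (46 genes in each genotype), 3 had a pool set far apart from the rest of its genotype, where chance gives about 1 in 20. Ccne2 (cyclin E2) was at 19.5 CPM in knockout pool 4 and at 16.5 to 17.3 CPM in the other knockout pools, all below the wildtype range of 21.7 to 25.1 CPM. Cdkn3 was at 11.8 CPM in wildtype pool 3 and at 9.02 to 9.49 CPM in the other wildtype pools. Cdc25b was at 59.2 CPM in wildtype pool 3 and at 52.8 to 53.9 CPM in the others. The same wildtype pool 3 had the highest summed CPM of red blood cell genes, at 339.6, and its part in these values was not tested.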

How the results depend on the processing

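The count of members lower stood at 25 to 29 under other scalings, filters, voom and DESeq2, and 1 member was higher under DESeq2 (Rb1). All 15 members called lower with values in every pool stayed so under 18 alternatives, with a largest adjusted p of 0.017 (Ccnd1 without wildtype pool 2). Leaving out 1 pool at a time gave 21 (without wildtype pool 3) to 27 members lower, 15 to 19 activators, 6 to 7 inhibitors, medians of −0.56 to −0.46 and −0.21 to −0.13, and a difference of medians of −0.39 to −0.30 (−0.33 with all pools). On TPM it gave 10 (without wildtype pool 1) to 17 genes and 0 to 6 rows. Without knockout pools 1 and 2, medians were −0.41 and −0.12, and 7 of the genes of the other cell cycle lists were called, against 11; TPM then gave 11 members (chosen after seeing the data). Member rows called numbered 3 with no filter on low TPM and 9 with TPM rescaled to 1 total; the cause was not tested. Pools share only numbers: same-numbered pools correlated at −0.0762 to 0.0777. With the replicate number as a block on pools 1 to 4, 25 members were lower by counts, 11 by TPM and 0 rows, and the difference of medians was −0.39. Each member held at least 348 counts in every pool, though the labels do not say how reads with several matches were counted.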

Other observations

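The rows of E2f3, chosen after their values were seen, had mean differences of both signs, and the gene was not called. Of its tested rows, 1 stood at 7.80 TPM in knockout and 3.71 in wildtype, another at 2.94 and 4.38, and the last at 1.30 and 3.78, with limma adjusted p-values of 0.299, 0.477 and 0.477. None passed the threshold, and in each row the pools overlapped between genotypes. Rows of both signs were found in 20 of the 36 members with at least 2 tested rows. The rows carry no transcript identifier, so that the isoforms cannot be named. A row of Cdk6, chosen the same way, stood at 3.21 TPM in knockout and 1.31 in wildtype (limma adjusted p = 0.282).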
